A study of Mus musculus with 8 samples.

Results

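The integrin subunits of helper T cells described here are Itgae, Itgb7, Itga4, Itgb1, Itgal, Itgb2, Itga1, Itga2, Itgav and Itgb3. They were taken by symbol from the platform annotation, with 1 probeset each, and make up 10 of the 19938 genes measured. Expression was profiled on 8 arrays of mouse CD4+ T cells (C57BL/6 background) in 4 groups of 2: Tet2-/- Th17, wild-type Th17, Tet2-/- Th1 and wild-type Th1 cells. Tet2 oxidises the methyl group of cytosines in DNA, a step towards their demethylation. Naive cells (CD25-, high CD62L, low CD44) had been sorted from spleen and lymph nodes of mice with or without Tet2 and stimulated through CD3 and CD28. Th17 cultures received TGF-β1 (0.5 ng/ml), IL-6 (10 ng/ml) and antibodies against interferon-γ and IL-4. Th1 cultures received IL-12 (10 ng/ml), IL-2 (30 U/ml) and the antibody against IL-4 alone. The sources used here do not give the age and number of the mice, the days of culture or how the Tet2 allele was made. The arrays of a group are named biological replicates, but whether each came from its own mouse is not stated, so the p values measure the spread between these arrays.

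Integrins are pairs of an α and a β chain that span the cell membrane and bind ligands on other cells or in the matrix. In T cells they guide traffic: α4 paired with β7 binds MAdCAM-1 on vessels of the gut, α4 paired with β1 binds VCAM-1, and αE (CD103) paired with β7 binds E-cadherin on epithelium. The pair αL and β2 forms LFA-1, which holds the T cell to other cells through ICAM-1. The αv chain pairs with several β chains and, with β8 or β6, releases TGF-β from its latent form.

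The windows around the transcription start of Itgb7 and Itgav, the members whose level differed between the cell types, are shown because Tet2 acts on the cytosine of CpG sites. Each holds 250 bases before and 50 after the start, from RefSeq on build GRCm38.p6, 5′ to 3′ on the strand of the gene, with the CpG sites in capitals. Itgb7 lies at chr15:102231886-102232185 on the minus strand and Itgav at chr2:83724147-83724446 on the plus strand.
Itgb7: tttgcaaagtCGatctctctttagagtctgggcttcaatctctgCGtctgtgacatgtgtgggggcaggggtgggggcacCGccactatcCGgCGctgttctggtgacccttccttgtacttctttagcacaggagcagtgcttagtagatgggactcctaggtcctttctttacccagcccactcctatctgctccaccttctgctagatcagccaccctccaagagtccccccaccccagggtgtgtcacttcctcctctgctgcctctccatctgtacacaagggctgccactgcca
Itgav: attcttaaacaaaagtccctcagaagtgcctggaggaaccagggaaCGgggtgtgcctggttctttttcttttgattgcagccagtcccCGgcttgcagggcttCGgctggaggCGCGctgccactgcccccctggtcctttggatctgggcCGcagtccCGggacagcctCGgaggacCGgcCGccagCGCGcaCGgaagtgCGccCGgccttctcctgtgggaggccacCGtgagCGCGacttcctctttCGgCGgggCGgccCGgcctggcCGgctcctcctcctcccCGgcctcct
The Itgb7 window held 5 CpG sites and the Itgav window 24. Of the 32851 windows in the table, 43.6% had at most as many as Itgb7 and 81.6% at most as many as Itgav, around a median of 7. Windows were found for 6 members, the others being Itgb1 with 27 sites, Itga2 with 13, Itga1 with 12 and Itga4 with 10. CAGAC, the core of the SMAD box, was found 2 times in the Itgb7 window and 0 times in the Itgav window on either strand, and 49.6% of all windows held it. The ROR half-site AGGTCA was in neither (16.3% of all windows), and the T-box half-site TCACAC was in neither (14.5%). Methylation was not measured on these arrays, so the sites are a description only.

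Lineage markers on the arrays went with the cell type labels. Of 8 listed T cell markers 7 were measured, and all 7 lay above the array medians (6.47 to 6.53 log2 units) on every array. All 5 measured Th17 markers were called higher in Th17 than in Th1 cells in both genotypes, among them Il17a, with a log2 difference of 3.10 in Tet2-/- and 3.78 in wild-type cells. Ifng, the Th1 cytokine, differed by -4.28 and -5.68. Correlations across genes were 0.990 to 0.994 within a group and 0.977 to 0.981 between cell types. The probeset of Tet2 read 8.37 and 8.42 in Tet2-/- Th17 cells, 8.53 and 8.51 in wild-type Th17 cells, 8.12 and 7.97 in Tet2-/- Th1 cells and 8.14 and 8.03 in wild-type Th1 cells. Where it lies relative to the deleted part is unknown, and the genotype is not checked by it. The Th17 arrays differ in sex-linked transcripts: Kdm5d, Uty and Eif2s3y, which are Y-linked, averaged 8.71 and 4.85 in Tet2-/- replicates 1 and 2 and 8.80 and 7.82 in wild-type replicates 1 and 2, against 7.94 to 8.24 on the Th1 arrays. Xist, the RNA that coats the inactive X chromosome, read 8.62 and 11.27 in Tet2-/- Th17 cells and 5.20 and 10.09 in wild-type Th17 cells, against 4.83 to 5.11 on the 4 Th1 arrays. Xist was thus high on 3 of 4 Th17 arrays, both Tet2-/- arrays and wild-type replicate 2, and on 0 of 4 Th1 arrays, so in Tet2-/- cells the cell type and the source of Xist cannot be told apart. A fit with the Xist level as a covariate, chosen after seeing the data, is given beside the results whose call it ends.

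**Figure D1:**
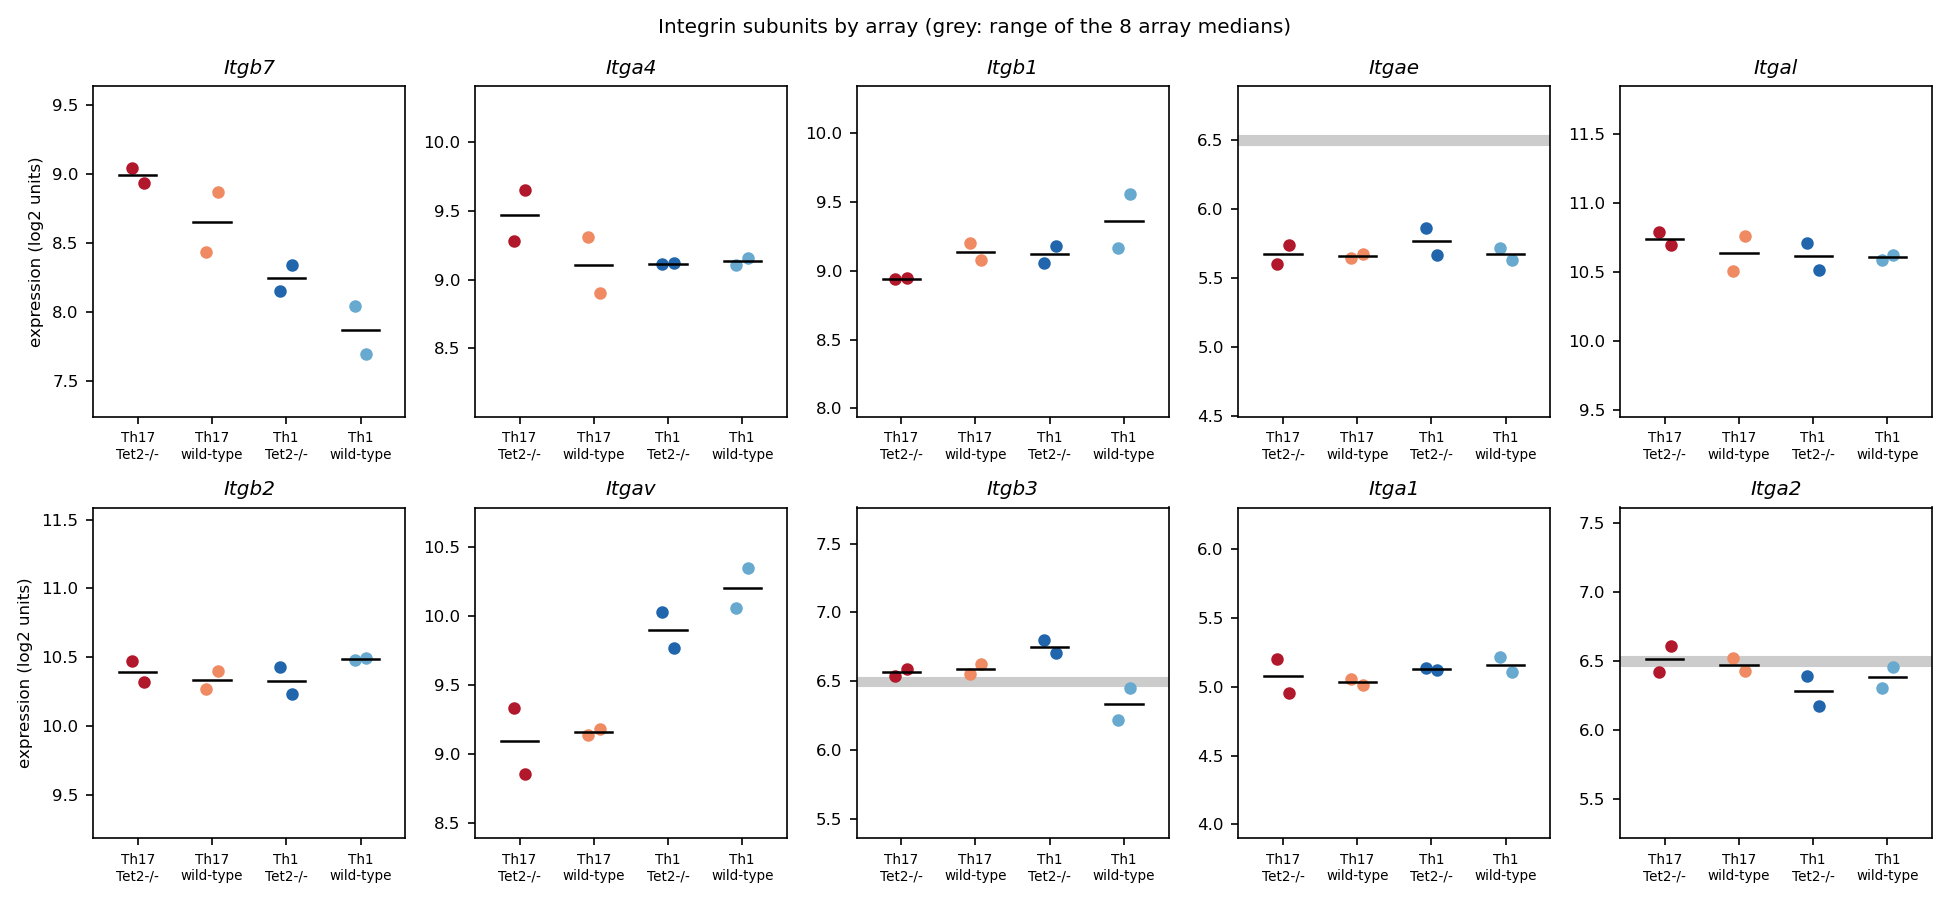
Expression of the 10 integrin subunits in log2 units on each of the 8 arrays, in 4 groups of 2 (points: arrays; line: group mean; grey band: the array medians, 6.47 to 6.53); each panel spans the same number of log2 units around the gene's mean. Itgb7 is higher and Itgav lower on the 4 Th17 arrays than on the 4 Th1 arrays, while Itgae and Itga1 lie under the band on all 8.

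Itgb7, the β chain of the gut-homing integrins, was higher in Th17 than in Th1 cells. It read 9.05 and 8.94 log2 units in Tet2-/- Th17 cells, 8.43 and 8.87 in wild-type Th17 cells, 8.15 and 8.35 in Tet2-/- Th1 cells and 8.04 and 7.70 in wild-type Th1 cells. All 4 Th17 arrays lay above all 4 Th1 arrays, as did those of 14% of all genes. Itgb7 was 1.67-fold higher in Th17 than in Th1 cells without Tet2 (log2 difference 0.74, SE 0.163, adjusted p = 0.0117). It was 1.72-fold higher in wild-type cells (0.78, SE 0.163, adjusted p = 0.0111). The group means stood in the order Tet2-/- Th17 (8.99), wild-type Th17 (8.65), Tet2-/- Th1 (8.25) and wild-type Th1 (7.87). Neighbours in that order did not overlap in their arrays, although the neighbours that differ by genotype did not pass the test. The middle step was small (8.43 against 8.35), spans both cell type and genotype, and was not tested. How many of all genes show a full order of this kind was not counted. The call in Tet2-/- cells ended without Th1 Tet2-/- replicate 1 (0.65, adjusted p = 0.105) or Th17 Tet2-/- replicate 1 (0.69, adjusted p = 0.107). In wild-type cells it ended without Th1 replicate 2 (0.61, adjusted p = 0.0703) or Th17 replicate 2 (0.56, adjusted p = 0.123), which leaves the Th17 array with low Xist. With the Xist level as a covariate both calls ended (0.47, adjusted p = 0.542 in Tet2-/- cells; 0.63, adjusted p = 0.110 in wild-type cells).

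Itgav, the α chain of the receptors for vitronectin and latent TGF-β, ran the other way. It read 9.33 and 8.85 log2 units in Tet2-/- Th17 cells, 9.13 and 9.18 in wild-type Th17 cells, 10.03 and 9.76 in Tet2-/- Th1 cells and 10.05 and 10.35 in wild-type Th1 cells. All 4 Th17 arrays lay below all 4 Th1 arrays, as did those of 10.2% of all genes. The level was 1.75-fold lower in Th17 than in Th1 cells without Tet2 (-0.81, SE 0.168, adjusted p = 0.00905) and 2.07-fold lower in wild-type cells (-1.05, SE 0.168, adjusted p = 0.00222). The arrays of Tet2-/- and wild-type Th17 cells overlapped, so these neighbours in the order did not differ beyond their spread. In Tet2-/- cells the call ended without Th1 Tet2-/- replicate 1 (-0.67, adjusted p = 0.0928) and without Th17 Tet2-/- replicate 2 (-0.57, adjusted p = 0.108), the array with the lowest Y-linked level. In wild-type cells it held without any 1 array, with an adjusted p of 0.00158 to 0.0210. With the Xist level as a covariate the call ended in Tet2-/- cells (-0.65, adjusted p = 0.376) and held in wild-type cells (-0.96, adjusted p = 0.0277).

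Itgb7 and Itgav were the members called between Th17 and Th1 cells, and they were called in both genotypes: 2 of 10 members in Tet2-/- cells, where 10.4% of all genes were called, and 2 of 10 in wild-type cells, where 8.47% were. In each genotype 1 member was called higher and 1 lower, beside 7.14% and 3.29% of all genes in Tet2-/- and 5.3% and 3.17% in wild-type cells. Arrays of the cell types did not overlap for 6 of 10 members in Tet2-/- cells, 3 higher and 3 lower (56.4% of all genes, 28.8% higher and 27.6% lower). In wild-type cells they did not overlap for 5 of 10, 2 higher and 3 lower (51.9% of all genes, 25.2% higher and 26.7% lower). The median over the 10 members was 0.01 in Tet2-/- cells and -0.02 in wild-type cells, beside -0.01 over all genes in each. With 10 members, 2 calls are close to the share of all genes, and the count is no result about the family. In bulk RNA, fewer cells with a transcript and less of it per cell cannot be told apart. Of the marker lists of other cell types, 2 held a gene called between Th17 and Th1 cells. For stromal and endothelial cells, the mean of the 9 markers was 6.54 to 6.59 in Tet2-/- and 6.34 to 6.39 in wild-type Th17 cells, against 6.20 to 6.21 in Tet2-/- and 6.16 to 6.19 in wild-type Th1 cells. Of these markers Lum was called higher in both genotypes (2.87 in Tet2-/- and 1.78 in wild-type cells) and Dcn in Tet2-/- cells (1.01), and the other 7 were not called. Of the 9, Pdgfra, Pdgfrb, Cdh5 and Kdr lay under the array medians on all 8 arrays, Col1a1, Col1a2 and Col3a1 lay above them on all 8, Lum on 4 and Dcn on 1. The mean of the 3 CD8 T cell markers was 6.45 to 6.52 in Tet2-/- and 6.49 to 6.51 in wild-type Th17 cells, against 6.96 to 7.08 in Tet2-/- and 7.06 to 7.12 in wild-type Th1 cells. Of these Eomes, which CD4 T cells can also express, was called lower (-1.36 in Tet2-/- and -1.31 in wild-type cells), and Cd8a and Cd8b1 were not called. All 4 NK cell markers and 7 of 8 myeloid markers also lay under the medians on all 8 arrays. Their part in the integrin results was not tested.

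**Figure D2:**
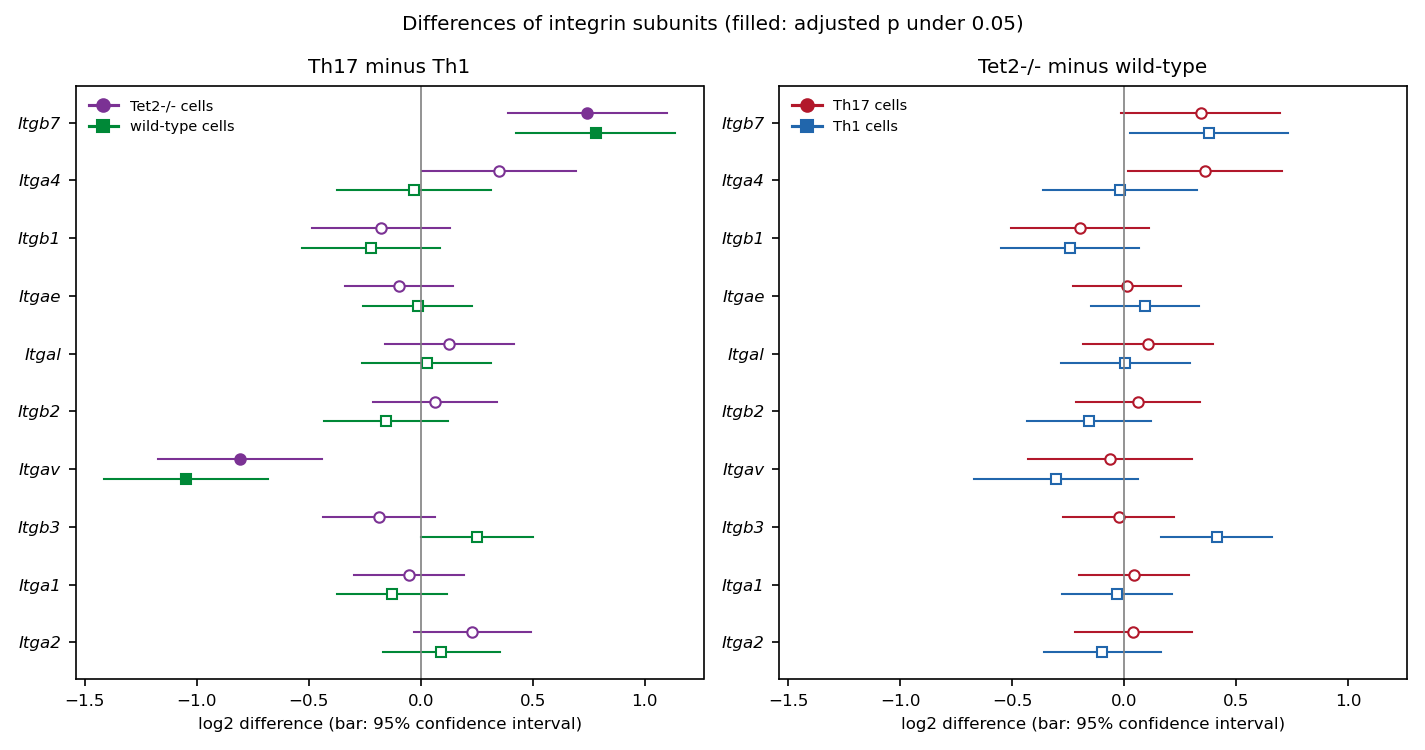
Log2 differences of the 10 subunits between Th17 and Th1 cells (left, by genotype) and between Tet2-/- and wild-type cells (right, by cell type), with 95% confidence intervals from the fit of all 8 arrays; filled symbols have an adjusted p under 0.05. Itgb7 at 0.74 and 0.78 and Itgav at -0.81 and -1.05 are filled on the left, and no symbol is filled on the right.

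The α4 chain and its other partner gave no call. Itga4 read 9.28 and 9.65 log2 units in Tet2-/- Th17 cells, 9.31 and 8.90 in wild-type Th17 cells, 9.11 and 9.12 in Tet2-/- Th1 cells and 9.11 and 9.16 in wild-type Th1 cells. Both Tet2-/- Th17 arrays stood above all Th1 arrays, and the wild-type Th17 arrays lay on either side of them. The difference between Th17 and Th1 cells was 0.35 (confidence interval 0.01 to 0.69, adjusted p = 0.195) in Tet2-/- cells and -0.03 (-0.37 to 0.32, adjusted p = 0.938) in wild-type cells. Itgb1, the β chain that pairs with α4, αv, α1 and α2, read 8.94 and 8.94 in Tet2-/- Th17 cells, 9.20 and 9.08 in wild-type Th17 cells, 9.06 and 9.18 in Tet2-/- Th1 cells and 9.16 and 9.56 in wild-type Th1 cells. The Tet2-/- Th17 arrays were the lowest of the 8. Its difference was -0.18 (-0.48 to 0.13, adjusted p = 0.502) in Tet2-/- and -0.22 (-0.53 to 0.09, adjusted p = 0.369) in wild-type cells.

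Because β7 and β1 share the α4 chain, their values were also subtracted within each array. The log2 value of Itgb7 minus that of Itgb1 was 0.11 and -0.01 in Tet2-/- Th17 cells, -0.76 and -0.21 in wild-type Th17 cells, -0.90 and -0.83 in Tet2-/- Th1 cells and -1.12 and -1.86 in wild-type Th1 cells. Probes differ in brightness, so only the change of this value between groups can be read, not its sign. It was higher on every Th17 array than on every Th1 array, and in each cell type higher on both Tet2-/- arrays than on both wild-type arrays. Itgb7 alone separated the arrays in the same way and Itgb1 was not called, so this order is no further evidence of a change between the partners. Over the 8 arrays Itgb7 and Itgb1 had a Pearson r of -0.83, and Itgb7 and Itgav one of -0.89, both across arrays that share their cell type and genotype.

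Itgae, the αE chain, was read at a low level in every group. It read 5.60 and 5.74 log2 units in Tet2-/- Th17 cells, 5.65 and 5.68 in wild-type Th17 cells, 5.87 and 5.67 in Tet2-/- Th1 cells and 5.72 and 5.63 in wild-type Th1 cells. All 8 values lay under the array medians and spanned 0.263 log2 units, with all groups overlapping. The difference between Th17 and Th1 cells was -0.09 (confidence interval -0.34 to 0.15) in Tet2-/- and -0.01 (-0.26 to 0.23) in wild-type cells, and a difference can be understated at so low a level. Itgae is known as a gene that TGF-β induces in T cells, and TGF-β1 was added to the Th17 cultures only. Of the 15 measured genes of a TGF-β response list, 5 were called higher and 1 lower in Th17 than in Th1 cells without Tet2, with a list median of 0.42 (all genes: 7.14% higher, 3.29% lower, median -0.01). In wild-type cells 6 were called higher and 1 lower, again with a median of 0.42 (all genes: 5.3%, 3.17% and -0.01). All genes of the list but Ltbp4 lay above the array medians on all 8 arrays, whereas the shares of all genes include genes of low level. Without Th17 Tet2-/- replicate 1 the count higher in Tet2-/- cells was 3, and with the Xist level as a covariate it was 2. Smad3, a transducer of the TGF-β receptor, was called higher (1.53 in Tet2-/- and 1.75 in wild-type cells), as was Ahr, a ligand-activated transcription factor (1.86 and 1.66). Runx3, a factor of Th1 and CD8 T cells that is known to act on Itgae, was lower (-0.96, adjusted p = 0.000741, and -0.87, adjusted p = 0.00193). Tgfbr1 (1.16) and Runx1 (0.97), called higher, were among the genes of smallest p in wild-type cells, and Tgfbr2 (0.90) in Tet2-/- cells. This naming by smallest p does not limit their difference to that genotype. Runx1 read 9.38 and 9.02 in Tet2-/- Th17 and 8.53 and 8.24 in Tet2-/- Th1 cells. Tgfbr2 read 8.58 and 8.94 in wild-type Th17 and 8.06 and 8.16 in wild-type Th1 cells. The Tgfbr2 call in Tet2-/- cells ended with the Xist level as a covariate (0.69, adjusted p = 0.206).

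The chains of LFA-1 gave no call between the cell types. Itgal read 10.79 and 10.70 log2 units in Tet2-/- Th17 cells, 10.51 and 10.76 in wild-type Th17 cells, 10.71 and 10.52 in Tet2-/- Th1 cells and 10.59 and 10.63 in wild-type Th1 cells. Itgb2 read 10.47 and 10.32 in Tet2-/- Th17 cells, 10.27 and 10.40 in wild-type Th17 cells, 10.43 and 10.23 in Tet2-/- Th1 cells and 10.48 and 10.49 in wild-type Th1 cells. Over the 8 arrays Itgal spanned 0.281 and Itgb2 0.260 log2 units. Both wild-type Th17 arrays lay below both wild-type Th1 arrays for Itgb2, and the arrays overlapped in the other comparisons of these cell types. For Itgal the difference between Th17 and Th1 cells had a confidence interval of -0.16 to 0.42 in Tet2-/- and -0.26 to 0.31 in wild-type cells, and for Itgb2 of -0.21 to 0.34 and -0.43 to 0.12.

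The list of integrin activation and signalling holds both genes known to switch integrins on and genes known to restrain them, Flna, Cytip, Sharpin and Itgb1bp1 among these. Of its 26 measured genes, 9 were called higher and 0 lower in Th17 than in Th1 cells without Tet2, where 7.14% of all genes were called higher, and the list median was 0.32. In wild-type cells 6 were called higher and 0 lower, where 5.3% of all genes were called higher, with a median of 0.22. All genes of the list but Rasgrp2, Parva and Kif14 lay above the array medians on every array. The shares of all genes include genes of low level, so the list and these shares are not matched for level. Skap1, an adaptor that couples the T cell receptor to LFA-1, was 2.81-fold higher in Tet2-/- cells (1.49, SE 0.120, adjusted p = 9.54e-06) and 2.65-fold higher in wild-type cells (1.40, SE 0.120, adjusted p = 1.72e-05). Its binding partner Fyb (ADAP) was 2.80-fold higher in Tet2-/- cells (1.49, SE 0.138) and 2.46-fold higher in wild-type cells (1.30, SE 0.138). Flna, an actin crosslinker that competes with talin for β tails, was higher by 0.79 in Tet2-/- and 0.65 in wild-type cells (adjusted p = 0.00130 and 0.00627), and Cytip, known to lower LFA-1 adhesion, by 0.64 and 0.65 (adjusted p = 0.0131 and 0.0156). The Cytip call ended in Tet2-/- cells without Th1 Tet2-/- replicate 1 (0.49, adjusted p = 0.130) or Th17 Tet2-/- replicate 1 (0.50, adjusted p = 0.176), and in wild-type cells without Th1 wild-type replicate 1 or either wild-type Th17 array (adjusted p = 0.0693 to 0.0859). The Flna call ended in wild-type cells without Th17 wild-type replicate 2 (0.61, adjusted p = 0.0682). The count in Tet2-/- cells was 3 without Th1 Tet2-/- replicate 1 or Th17 Tet2-/- replicate 1 and 4 without Th1 Tet2-/- replicate 2. In wild-type cells it was 2 without Th17 wild-type replicate 2 and 3 without Th1 wild-type replicate 1. With the Xist level as a covariate the counts were 2 in Tet2-/- and 3 in wild-type cells. The calls of Skap1 and Fyb held there in both genotypes, while those of Flna ended in both (adjusted p = 0.124 and 0.0581) and that of Cytip in Tet2-/- cells (adjusted p = 0.151).

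**Figure D3:**
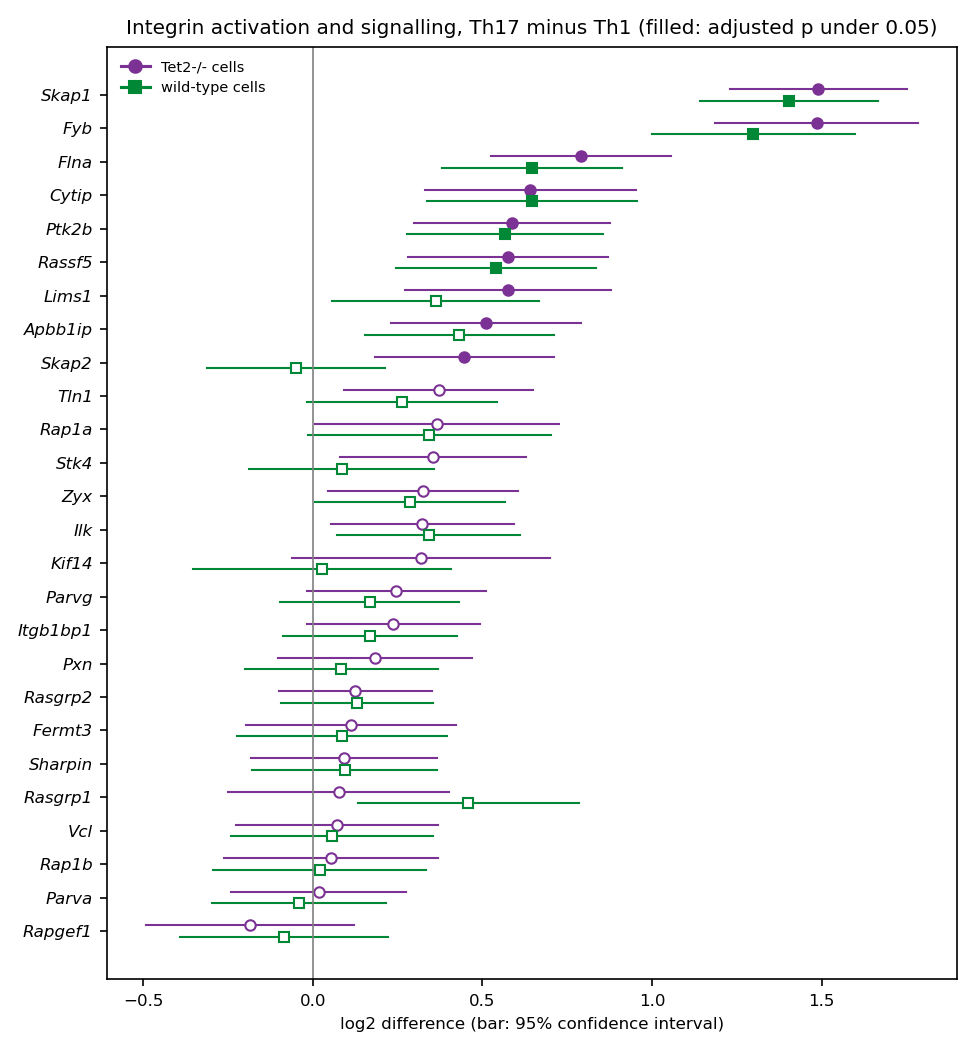
Log2 differences between Th17 and Th1 cells for 26 genes of integrin activation and signalling, in Tet2-/- cells (circles) and wild-type cells (squares), with 95% confidence intervals; filled symbols have an adjusted p under 0.05. Skap1 (1.49 and 1.40) and Fyb (1.49 and 1.30) stand above the other 24 genes in both genotypes.

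Of the ligands of integrins, 14 were measured, and 1 was called higher and 1 lower in each genotype, which is near the shares of all genes (7.14% higher and 3.29% lower in Tet2-/-, 5.3% and 3.17% in wild-type cells). Icam1, the main ligand of LFA-1, was lower in Th17 than in Th1 cells, with a log2 difference of -0.92 in Tet2-/- cells (SE 0.138, adjusted p = 0.00105) and -0.75 in wild-type cells (SE 0.138, adjusted p = 0.00555). Icam2, a further LFA-1 ligand, was called higher, by 0.43 (adjusted p = 0.0239) and 0.41 (adjusted p = 0.0365). The Icam2 call ended without any 1 of the 4 arrays compared, with an adjusted p of 0.0742 to 0.175 in Tet2-/- cells and 0.0820 to 0.137 in wild-type cells. It also ended with quantile normalization (adjusted p = 0.0558 in Tet2-/- and 0.0846 in wild-type cells) and with the Xist (0.278 and 0.123) or Y-linked level (0.0525 and 0.0668) as a covariate. In wild-type cells it ended too without either Th17 Tet2-/- array. There it also ended with array weights (adjusted p = 0.0598), a replicate block (0.0626), only the arrays compared (0.0862) and no moderation of the variance (0.0610). The call of Icam1 in wild-type cells ended without Th17 wild-type replicate 1 (-0.61, adjusted p = 0.0519), and that in Tet2-/- cells with the Xist level as a covariate (-1.01, adjusted p = 0.0582). The ligands of the gut and epithelial integrins, named here for that role after their values were seen, were not called: Cdh1 and Vcam1 lay under the array medians on all 8 arrays and Madcam1 lay above them on 1.

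**Figure D4:**
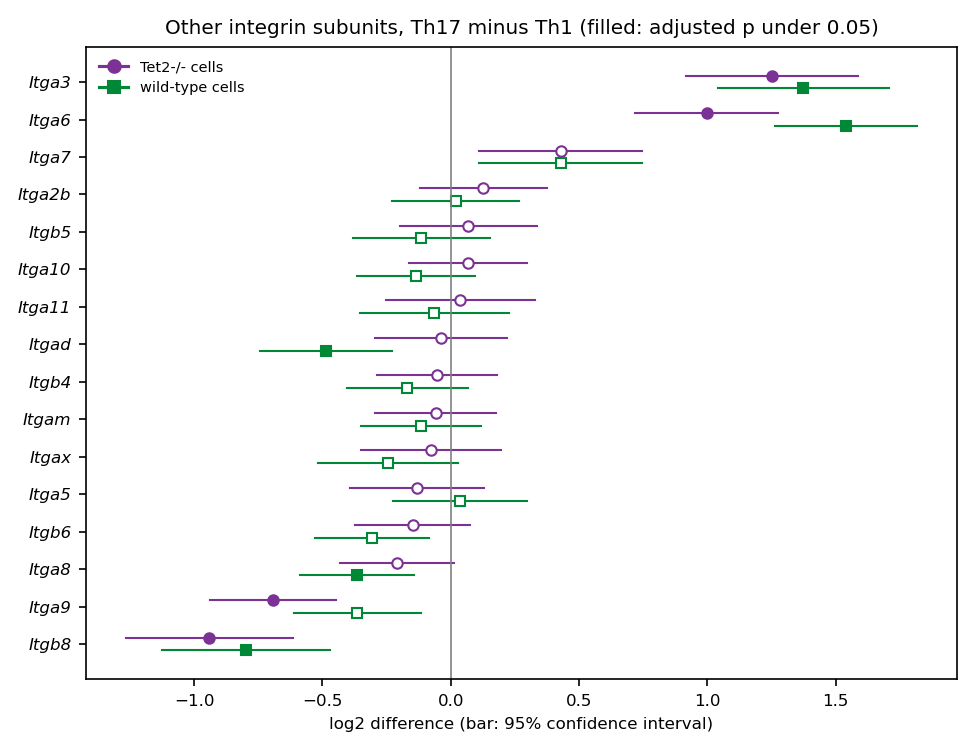
Log2 differences between Th17 and Th1 cells for the 16 further integrin subunits on the array, in Tet2-/- cells (circles) and wild-type cells (squares), with 95% confidence intervals; filled symbols have an adjusted p under 0.05. Itga3 and Itga6 are higher and Itgb8 lower in Th17 cells in both genotypes.

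Among the 16 further integrin subunits, 2 were called higher and 2 lower in Th17 than in Th1 cells without Tet2 (all genes: 7.14% higher and 3.29% lower), and 2 higher and 3 lower in wild-type cells (5.3% and 3.17%). Itga3, an α chain of laminin receptors, averaged 9.71 log2 units in Tet2-/- Th17 and 8.46 in Tet2-/- Th1 cells (difference 1.25, SE 0.154, adjusted p = 0.000272), and 9.63 in wild-type Th17 and 8.25 in wild-type Th1 cells (1.37, SE 0.154, adjusted p = 0.000141). Itga6, also a laminin receptor chain, averaged 8.57 in Tet2-/- Th17 and 7.58 in Tet2-/- Th1 cells (1.00, SE 0.128, adjusted p = 0.000362), and 9.10 in wild-type Th17 and 7.56 in wild-type Th1 cells (1.54, SE 0.128, adjusted p = 1.33e-05). Itgb8, the partner with which αv frees TGF-β, was lower as well. It averaged 6.77 in Tet2-/- Th17 and 7.71 in Tet2-/- Th1 cells (-0.94, SE 0.151, adjusted p = 0.00171), and 6.85 in wild-type Th17 and 7.65 in wild-type Th1 cells (-0.80, SE 0.151, adjusted p = 0.00630). Without Th17 wild-type replicate 2 the wild-type call of Itgb8 ended (-0.65, adjusted p = 0.0805). The remaining calls were Itga9 in Tet2-/- cells (-0.69, adjusted p = 0.00200), and Itgad (-0.48, adjusted p = 0.0248) and Itga8 (-0.36, adjusted p = 0.0467) in wild-type cells. Itga8 and Itgad lay under the array medians on all 8 arrays, and Itga9 lay above them on 3. None of the 21 alternative settings gave as many as 3 called lower in wild-type cells. The count of 3 lower in wild-type cells was 0 without Th17 wild-type replicate 2, 1 without Th1 wild-type replicate 1 or Th17 wild-type replicate 1, and 2 without any other 1 array. With the Xist level as a covariate 1 was called higher and 0 lower in Tet2-/- cells and 2 higher and 0 lower in wild-type cells. The calls of Itgb8 (adjusted p = 0.210 in Tet2-/- and 0.0646 in wild-type cells) and of Itga3 in Tet2-/- cells (0.90, adjusted p = 0.0865) ended there. The call of Itgad also ended when the probesets of a gene were averaged (-0.17, adjusted p = 0.358).

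The last members lay near or under the array medians. Itgb3, the β chain of the vitronectin receptor, read 6.54 and 6.59 log2 units in Tet2-/- Th17 cells, 6.55 and 6.63 in wild-type Th17 cells, 6.80 and 6.70 in Tet2-/- Th1 cells and 6.22 and 6.45 in wild-type Th1 cells. The wild-type Th1 arrays were the lowest and the Tet2-/- Th1 arrays the highest. Its difference between Th17 and Th1 cells was -0.19 in Tet2-/- cells (adjusted p = 0.361) and 0.25 in wild-type cells (adjusted p = 0.200). Itga2, the α chain of a collagen receptor, ranged from 6.18 to 6.61 over the 8 arrays and differed by 0.23 (adjusted p = 0.268) and 0.09 (adjusted p = 0.690). Itga1, the α chain of another collagen receptor, ranged from 4.95 to 5.22, under the medians on all 8 arrays, and differed by -0.05 and -0.13 (adjusted p = 0.832 and 0.537). Itgb3 and Itga2 are also chains of platelets: of 4 measured platelet markers, Pf4 and Ppbp lay under the array medians on all 8 arrays and Gp9 and Itga2b above them on 7 of 8, and the mean of the 4 was 5.65 to 5.67 in Tet2-/- Th17, 5.63 to 5.72 in wild-type Th17, 5.66 to 5.79 in Tet2-/- Th1 and 5.71 to 5.80 in wild-type Th1 cells.

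The loss of Tet2 gave no call among the members in either cell type. In Th17 cells limma called 0 of 10 members and 0% of all genes, and in Th1 cells 0 of 10 members and 0.00502% of all genes (1 gene, Ifng). At an unadjusted p under 0.05 stood 1 member in Th17 and 2 members in Th1 cells, beside 848 and 1145 of all genes. For the median gene, a difference of 0.27 was needed for an unadjusted p of 0.05.

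Itgb7 differed by 0.34 between Tet2-/- and wild-type Th17 cells (SE 0.163, confidence interval -0.01 to 0.70, adjusted p = 0.999) and by 0.38 between Tet2-/- and wild-type Th1 cells (SE 0.163, 0.03 to 0.73, adjusted p = 0.841). In each cell type both Tet2-/- arrays lay above both wild-type arrays, as did those of 19.9% of all genes in Th17 and 18.3% in Th1 cells. Leaving out 1 array gave 0.12 to 0.56 in Th17 and 0.21 to 0.55 in Th1 cells. Of the wild-type Th17 arrays, replicate 1, with low Xist (5.20), read 8.43. Replicate 2, with high Xist (10.09), read 8.87, near the Tet2-/- Th17 arrays (9.05 and 8.94). The mean of the Itgb7 differences in Th17 and Th1 cells was 0.36 (SE 0.115, unadjusted p = 0.00842, adjusted p = 0.887), rank 189 of 19938 genes by p. In Th1 cells Itgb3 had the smallest p of the members (0.41, SE 0.115, unadjusted p = 0.00346, adjusted p = 0.824), with both Tet2-/- arrays above both wild-type arrays. In Th17 cells it differed by -0.02 (confidence interval -0.27 to 0.22), and the test of the difference between the cell types gave -0.44 (SE 0.162, unadjusted p = 0.0189, adjusted p = 0.999). Itga4 differed by 0.36 in Th17 (SE 0.158, adjusted p = 0.999) and -0.02 in Th1 cells, with overlapping arrays in both.

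Of the members, 2 of 10 did not overlap between genotypes in Th17 cells (33.2% of all genes) and 4 of 10 in Th1 cells (32.7%), which is near the share of all genes. Lum, of the stromal markers, differed by 1.02 between Tet2-/- and wild-type Th17 cells (adjusted p = 0.0689), and its part in these values was not tested. Itgb1 differed by -0.20 in Th17 and -0.24 in Th1 cells (SE 0.142; adjusted p = 0.999 and 0.858), and Itgav by -0.06 and -0.30 (SE 0.168; adjusted p = 0.999 and 0.855). The remaining members, Itgae, Itgal, Itgb2, Itga1 and Itga2, had differences between 0.01 and 0.11 in Th17 cells and between -0.16 and 0.09 in Th1 cells. limma called 0 of 10 members, and 0% of all genes, for the mean of the genotype effects in Th17 and Th1 cells and for their difference, with 3 members and 1 member at an unadjusted p under 0.05. Of the genes of integrin activation and signalling, 0 of 26 were called in either cell type, with 2 in Th17 and 0 in Th1 cells at an unadjusted p under 0.05, and 21 of 26 were higher in Tet2-/- than in wild-type Th17 cells (median 0.14, beside 0.02 and 56.6% higher over all genes). In Th1 cells 14 of 26 were higher (median 0.02, beside 0.01 and 52.2% higher over all genes), and the difference between the cell types was not tested for the list. These genes share the same arrays, and how far the direction counts rest on single arrays was not tested. In Th17 cells the arrays of the genotypes overlapped for some genes counted as higher, Fermt3 and Ptk2b among them. Of the 16 further subunits 0 were called in either cell type, with 1 in each at an unadjusted p under 0.05. The smallest p there was that of Itga6 in Th17 cells, at -0.53 (SE 0.128, unadjusted p = 0.00135, adjusted p = 0.730). Among the ligands (0 of 14) and the TGF-β response list (0 of 15) none was called in either cell type, though at an unadjusted p under 0.05 stood 0 ligands in each and 2 TGF-β genes in Th17 and 1 in Th1 cells.

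The genes whose values followed Itgb7 and Itgav most closely were sought among 421 named genes with group means that span at least 1 log2 unit. Over the 8 arrays, Itgb7 correlated best with Gramd3, a GRAM domain protein (r = 0.978), the syndecan Sdc4, a matrix receptor (r = 0.978), and Stim1, the calcium sensor of the endoplasmic reticulum (r = 0.973). Their group means had the order of those of Itgb7: for Sdc4 they were 8.23 log2 units in Tet2-/- Th17, 7.90 in wild-type Th17, 7.45 in Tet2-/- Th1 and 7.17 in wild-type Th1 cells. Itgav correlated best with the cytokine Il3 (r = 0.973), Perp, a membrane protein induced by p53 (r = 0.969), and the cytokine Il24 (r = 0.968). Il24 averaged 6.46 in Tet2-/- Th17, 6.88 in wild-type Th17, 8.75 in Tet2-/- Th1 and 9.58 in wild-type Th1 cells. These correlations describe arrays that share a cell type and a genotype, and the highest values among 421 genes were chosen. The shared order of the group means largely follows from that choice.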

How the data were processed

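Each culture gave 1 Affymetrix array of biotin-labelled total RNA. The authors deposited a table of log2 values by probeset, for which the submitters' processing notes name RMA and Partek. The sources used here give no versions, filters, array genome build or log base; the base was read from the spread of the values (2.71 to 14.1). The number of arrays limits the precision.

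Of 35556 probesets, 21789 had 1 gene symbol, 1621 several and 12146 none listed. By Entrez ID, 21698 of those with 1 symbol were found in a RefSeq gene table (GRCm38.p6), which changed 0 symbols. The probeset with the highest mean was used for the 999 genes with more than 1, leaving 19938 genes. With limma 3.58.1 (R 4.3.3; lmFit, then eBayes with trend) group means were estimated from the 8 arrays together, with 4 residual and 8.44 prior degrees of freedom. Tests were two-sided with Benjamini-Hochberg adjustment over the 19938 genes, and calls are genes under an adjusted p of 0.05. Confidence intervals are at 95%, SE comes from the fit, and the comparisons share arrays. The fitting steps were tested on simulated data.

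The members and the gene lists were chosen with earlier results of these data known. All members were named. From each other list the text names up to 4 called genes with the smallest p, otherwise up to 3 with the smallest p, in a comparison described. Of the further subunits all called genes are named. For Itgb7 and Itgav the 3 genes with the highest Pearson correlation are named. Other exceptions are marked. The alternatives covered normalization, variance moderation, low levels, probeset choice, array weights, a replicate block, Y-linked and Xist level and leaving out each array.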

Additional observations from a re-analysis of the deposited data

How the results depend on the processing

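Over 21 alternative settings, 8 of which leave out 1 array, the 60 member results gave 1216 values, of which 1139 kept their direction and side of the threshold, 14 were no longer past it, 0 were newly past it and 63 turned direction. No member was called between genotypes under any setting. With no moderation of the variance 0 members were called between Th17 and Th1 cells in either genotype, against 2 in each as reported. With the Xist level as a covariate, chosen after seeing the data, 0 members were called in Tet2-/- and 1 in wild-type cells, and 317 and 727 of all genes; the SE of Itgb7 was 0.259 and 0.195 there, against 0.163 as reported. Without the Th17 arrays of the highest and the lowest Y-linked level (wild-type replicate 1, the Th17 array with low Xist, and Tet2-/- replicate 2), 1 was called in Tet2-/- cells, where Itgav was -0.57 (adjusted p = 0.154). Leaving out 1 array gave 0 to 2 in Tet2-/- and 1 to 2 in wild-type cells. All turned values belonged to differences that were not called (lowest adjusted p = 0.698), and the cause was not tested. With quantile normalization Itgal was -0.0268 for Tet2-/- minus wild-type Th1 cells and -0.0202 for Th17 minus Th1 in wild-type cells, Itgae was 0.0376 in the same wild-type comparison and Itga1 0.00414 for Th17 minus Th1 in Tet2-/- cells. With arrays centred on their medians Itgae was 0.00532 in wild-type cells. With Y-linked expression as a covariate Itgae was -0.0476, Itga2 -0.0176 and Itgav 0.11 for Tet2-/- minus wild-type Th17 cells, and Itga1 0.0243 for Th17 minus Th1 in Tet2-/- cells. Without the Th17 arrays of the highest and the lowest Y-linked level these were -0.0723, -0.00451, 0.15 and 0.0737, and Itgae was 0.000510 for Th17 minus Th1 in wild-type cells. With the Xist covariate Itgae was -0.0251 and Itgav 0.00842 for Tet2-/- minus wild-type Th17 cells, Itgal -0.0311 and Itga1 0.0922 for Th17 minus Th1 in Tet2-/- cells, and Itga4 0.0570 and Itgal -0.0591 in wild-type cells.

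Leaving out 1 array turned the following differences. For Tet2-/- minus wild-type Th1 cells the ranges were -0.00737 to 0.19 for Itgae, -0.0413 to 0.00661 for Itga4, -0.0904 to 0.10 for Itgal, -0.0886 to 0.0232 for Itga1 and -0.20 to 0.0101 for Itga2. In Th17 cells they were -0.0577 to 0.0794 for Itgae, -0.0204 to 0.23 for Itgal, -0.0161 to 0.14 for Itgb2, -0.0810 to 0.17 for Itga1, -0.0510 to 0.13 for Itga2, -0.30 to 0.17 for Itgav and -0.0622 to 0.0131 for Itgb3. For the mean of both they were -0.00758 to 0.12 for Itgal, -0.0974 to 0.000725 for Itgb2, -0.0568 to 0.0678 for Itga1 and -0.0815 to 0.0256 for Itga2. For the difference between cell types they were -0.18 to 0.0182 for Itgae, -0.26 to 0.18 for Itgb7, -0.15 to 0.24 for Itgb1, -0.0256 to 0.23 for Itgal and -0.0483 to 0.20 for Itga1. For Th17 minus Th1 in Tet2-/- cells they were -0.19 to 0.00410 for Itgae, -0.0356 to 0.16 for Itgb2 and -0.18 to 0.0737 for Itga1, and in wild-type cells -0.0548 to 0.0266 for Itgae, -0.23 to 0.18 for Itga4 and -0.0999 to 0.15 for Itgal.

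The replicate numbers showed no effect shared between groups: deviations of same-numbered arrays correlated at -0.189 to 0.0534. Whether same-numbered cultures came from the same mouse or day cannot be read from these correlations. With the number as a replicate block, Itgb7 had an adjusted p of 0.0181 in Tet2-/- and 0.0174 in wild-type cells and Itgav 0.0139 and 0.00347, and 2 members were called in each genotype; the wild-type call of Icam2 ended (adjusted p = 0.0626). Of all genes, 2078 were called between Th17 and Th1 cells in Tet2-/- and 1689 in wild-type cells, against 166 and 87 with no moderation of the variance. Leaving out 1 array gave 815 to 2383 in Tet2-/- and 667 to 1560 in wild-type cells, and leaving out the Th17 arrays of the highest and the lowest Y-linked level 975 and 808. Between Tet2-/- and wild-type Th17 cells 0 genes were called, against 9 without Th17 Tet2-/- replicate 1 and 2 without Th17 wild-type replicate 1 or with array weights. The comparison of dim members (Itgae, Itga1, Itga2, Itgb3) gave no value where genes of low level were left out, and the mean and the difference of genotype effects gave none with only the arrays compared.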

Other observations

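Homing and adhesion molecules other than integrins, of which 16 were measured, were also called between the cell types. In Tet2-/- cells 6 were called higher and 1 lower in Th17 than in Th1 cells, with a list median of 0.40, and in wild-type cells 5 were called higher and 1 lower, with a median of 0.23, beside -0.01 over all genes in each. Of all genes 7.14% were called higher and 3.29% lower in Tet2-/- and 5.3% and 3.17% in wild-type cells. These shares include genes of low level, while most genes of the list lay above the array medians on all 8 arrays. With the Xist level as a covariate, chosen after seeing the data, 2 were called higher and 0 lower in Tet2-/- and 4 higher and 0 lower in wild-type cells. S1pr1, the receptor for lymph node egress, was higher by 1.31 in Tet2-/- and 0.86 in wild-type cells (adjusted p = 4.68e-05 and 0.00138 by limma). Pecam1, an adhesion molecule, was higher by 1.13 and 1.32 (adjusted p = 0.000188 and 6.46e-05), and Ccr6, the chemokine receptor of Th17 cells, by 0.91 and 1.29 (adjusted p = 0.00221 and 0.000214). With Xist as a covariate the calls of Pecam1 and Ccr6 in Tet2-/- cells ended (adjusted p = 0.0570 and 0.168). Cxcr6 was called in Tet2-/- cells (1.61, adjusted p = 0.00187), and in wild-type cells it differed by 0.85 (adjusted p = 0.0652); the difference between these was not called. Cd69, called higher, was among the genes of smallest p in wild-type cells (1.16). This naming by smallest p does not limit its difference to wild-type cells. It read 11.97 and 11.78 log2 units in Tet2-/- Th17 cells and 10.71 and 11.26 in Tet2-/- Th1 cells. Between Tet2-/- and wild-type cells 0 of the 16 were called by limma in either cell type, with 3 in Th17 and 2 in Th1 cells at an unadjusted p under 0.05.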
